A study of Mus musculus with 4 samples.

Results

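The genes examined here encode histones and the proteins that modify, read or move them. They were taken from all features of the array table by gene symbol: histones (H1f, H2a, H2b, H3 and H4 symbols), histone deacetylases (Hdac), acetyltransferases (Kat), lysine demethylases (Kdm) and methyltransferases (Kmt, Ezh), DNA methyltransferases (Dnmt), chromatin remodellers (Smarc, Chd), Cbx readers and Hmg architectural proteins. The symbols matched 93 features, of which 86 had a value on at least 1 array, out of 16281 features in the table. These 86 features stood for 76 genes: 25 histone genes, 36 enzyme and remodeller genes and 15 Cbx or Hmg genes. The Smarc and Chd families were counted with the enzymes, although some Smarc genes encode subunits with no catalytic activity of their own.

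The 4 two-colour arrays compared RNA from the dentate gyrus of young male C57BL/6J mice injected with MK-801 (labelled dose 300 µg per g body weight, Cy5) with RNA from mice injected with saline (5 µL per g, Cy3), at 1, 2, 4 and 6 h, with 1 array per time. MK-801 blocks the NMDA-type glutamate receptor channel. Per the labels, time runs from the final shock treatment of MK experimental mice, yet both channels' RNA is described as coming from control mice, which does not settle whether animals given an injection were also shocked. How many mice were pooled is not stated. Each value is a log ratio between the channels, read as log2 and centred on the median of its array. Neither the log base nor the direction of the ratio is stated, so values are described as positive or negative in the table, and no statement is made about which treatment was higher. No time was repeated, so a value at a single time has no replicate error, and the number of arrays limits the precision.

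Histones package DNA into nucleosomes: H2A, H2B, H3 and H4 form the core, and the linker histone H1 binds where the DNA enters and leaves it. Most histone genes are replication-dependent: they lie in clusters, are transcribed in S phase, and give mRNAs that end in a stem-loop and not in a poly(A) tail. Replacement variants such as H2A.Z, H2A.X and H3.3 are made throughout the cell cycle and are the main source of new histone in neurons, which no longer divide. Acetyltransferases and deacetylases add and remove acetyl groups on histone tails, and methyltransferases and demethylases do so for methyl groups, while remodellers use ATP to slide or evict nucleosomes. The sources used here do not give the primer used for labelling, and copies of a replication-dependent histone are so alike in sequence that a feature named for 1 copy can bind others.

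H1f4 and H1f2 are linker histone genes whose log ratios differed at 4 and 6 h, and H3c8 and H4c11 had the lowest and the highest mean ratio among the core histones with all 4 values. Their promoters are therefore shown as the 250 bases before the annotated start, from RefSeq on GRCm38.p6. Of the 76 genes, 62 had an entry in that table, 20 of them histones, and 11 of these 20 lie on chromosome 13. Capitals mark the H1 box (AAACACA), the CCAAT box (CCAAT), the TATA box (TATAAA) and the octamer known from H2B promoters (ATTTGCAT), each searched on both strands.
H1f4 (chr13:23622559-23622808, minus strand): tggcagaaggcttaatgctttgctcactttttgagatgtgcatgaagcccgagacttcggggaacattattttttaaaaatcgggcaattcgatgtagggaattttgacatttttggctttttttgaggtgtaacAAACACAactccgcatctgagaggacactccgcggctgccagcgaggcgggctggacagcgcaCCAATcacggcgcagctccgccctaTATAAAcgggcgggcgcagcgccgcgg
H1f2 (chr13:23738557-23738806, plus strand): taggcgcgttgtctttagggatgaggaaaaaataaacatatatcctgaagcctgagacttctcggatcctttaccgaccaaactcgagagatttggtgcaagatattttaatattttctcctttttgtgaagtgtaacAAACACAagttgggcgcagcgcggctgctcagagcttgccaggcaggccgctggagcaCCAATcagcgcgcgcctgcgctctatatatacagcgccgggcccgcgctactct
H3c8 (chr13:23535168-23535417, plus strand): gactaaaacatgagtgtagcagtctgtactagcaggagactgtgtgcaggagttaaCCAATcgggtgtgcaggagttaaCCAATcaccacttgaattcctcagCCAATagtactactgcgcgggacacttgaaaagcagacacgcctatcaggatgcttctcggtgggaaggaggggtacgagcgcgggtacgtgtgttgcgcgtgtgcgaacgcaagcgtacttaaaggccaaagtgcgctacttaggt
H4c11 (chr13:21734784-21735033, plus strand): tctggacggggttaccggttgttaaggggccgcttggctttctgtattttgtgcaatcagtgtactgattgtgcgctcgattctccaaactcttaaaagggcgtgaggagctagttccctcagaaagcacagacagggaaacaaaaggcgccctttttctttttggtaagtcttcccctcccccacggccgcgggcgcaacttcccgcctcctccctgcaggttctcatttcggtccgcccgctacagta
H1f4 and H1f2 held the H1 box at nearly the same place, starting 115 and 112 bases before the start, and a CCAAT box starting 52 and 54 bases before it. TATAAA was found in the H1f4 window, starting 27 bases before the start, and these exact letters are not in the H1f2 window. H3c8 held CCAAT 3 times, and the H4c11 window held none of the 4 motifs. Among all 32851 windows of this length, 6.25% held the H1 box, 33.8% CCAAT, 12.4% TATAAA and 1.6% the octamer. Among the 20 histone windows the counts were 4, 14, 7 and 2. These matches describe letters and are not tested sites.

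An exact 0 in the table was taken as no value, and values were less complete for histones than for enzymes. All 4 arrays gave a value for 15 of 27 histone features (55.6%), 37 of 43 enzyme features (86.0%) and 15 of 16 Cbx and Hmg features (93.8%), beside 62.9% of all 12221 features with 1 symbol and any value. This left 61 genes with a value at every time: 14 histone, 33 enzyme and 14 Cbx or Hmg genes. The features of Hdac9, Smarca5, H1f5, H1f7, H2al3 and H2ap and 1 Smarcd2 feature had no value on any array.

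Features with a value at 1 h alone read high there. They made up 8 of the 86 member features (9.30%), beside 7.6% of all features. The 8 were the linker histone H1f1 (1.08), H2ac10 of the H2A family (1.06), H2bfm of the H2B family (1.12), the replication-dependent H3c1 (0.85), H2al2a (0.06), the DNA methyltransferase cofactor Dnmt3l (0.97), and an additional feature each of the acetyltransferase Kat2a (0.37) and the remodeller subunit Smarcd2 (0.52). Their median was 0.91, and 6 of the 8 lay at or above 0.5. The same held over the whole array, where the 929 features with a value at 1 h alone had a median of 0.42 and 44.2% of them lay at or above 0.5, against 3.93% of the features with all 4 values. The Polycomb reader Cbx2, with values at 1 and 2 h, read 1.46 and 0.11. The distribution of ratios at 1 h by completeness shows where the 8 members lie within this array-wide pattern.

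**Figure D1:**
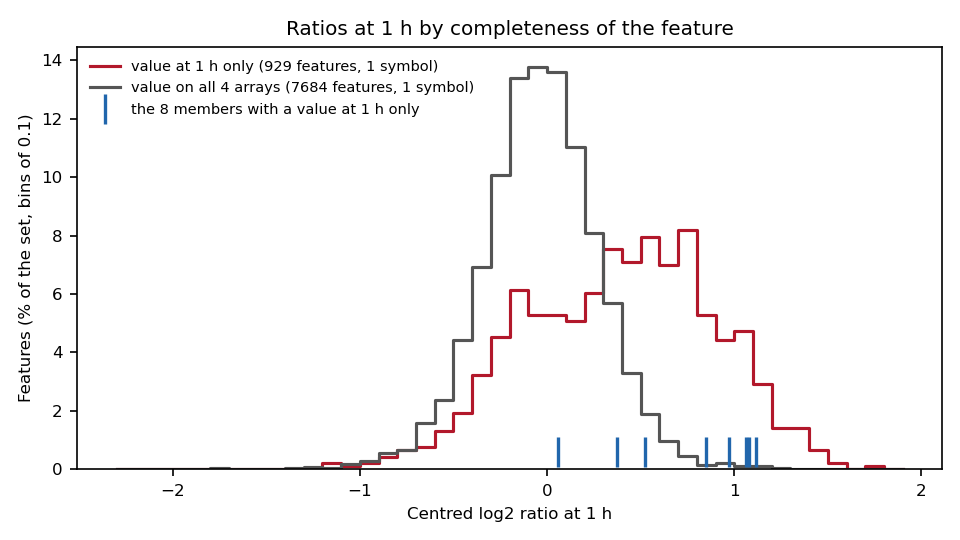
Centred log2 ratio at 1 h (horizontal axis) against the percentage of features per bin of 0.1 (vertical axis), for the 929 features with 1 symbol and a value at 1 h alone (red) and the 7684 with values on all 4 arrays (grey). Blue ticks mark the 8 member features with a value at 1 h alone, 6 of which lie at or above 0.5.

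The main comparison set histones against chromatin enzymes at each time. At 1 h the median ratio was 0.13 over the 14 histone genes and -0.12 over the 33 enzyme genes, beside -0.03 over all 6661 genes with 4 values. There 8 of 14 histones were positive and 25 of 33 enzymes were negative, where 45.3% of all genes were positive. At 2, 4 and 6 h 6, 6 and 7 histones and 17, 13 and 14 enzymes were positive, where the shares of all genes were 48.8%, 49.8% and 50.5%. At 2 h the medians were -0.03 for histones and 0.01 for enzymes, at 4 h -0.02 and -0.08, and at 6 h 0.02 and -0.07. The histone median minus the enzyme median was thus 0.25, -0.04, 0.06 and 0.09 at 1, 2, 4 and 6 h. Both class medians lay between -0.08 and 0.02 from 2 h on, and the difference was largest at 1 h.

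With 1 array per time this difference has no test. Within an array, 2 features of the same gene differed by a median of 0.23, 0.17, 0.16 and 0.13 on the arrays of 1, 2, 4 and 6 h over 868 genes, which describes the error of single features and not that of a class median. With every gene that had a value at 1 h, 22 histones and 36 enzymes, the histone median was 0.26 and the difference 0.38, with 16 histones and 9 enzymes positive where 49.6% of all genes with a value were. The genes added in this way include histones with a value at 1 h alone, which entered only through the array on which such features read high, so the larger difference does not support the smaller one. At the later times that share of all genes was 50.8%, 49.7% and 50.3%. With 1 feature per gene the histone median was 0.04 and the difference 0.16.

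**Figure D2:**
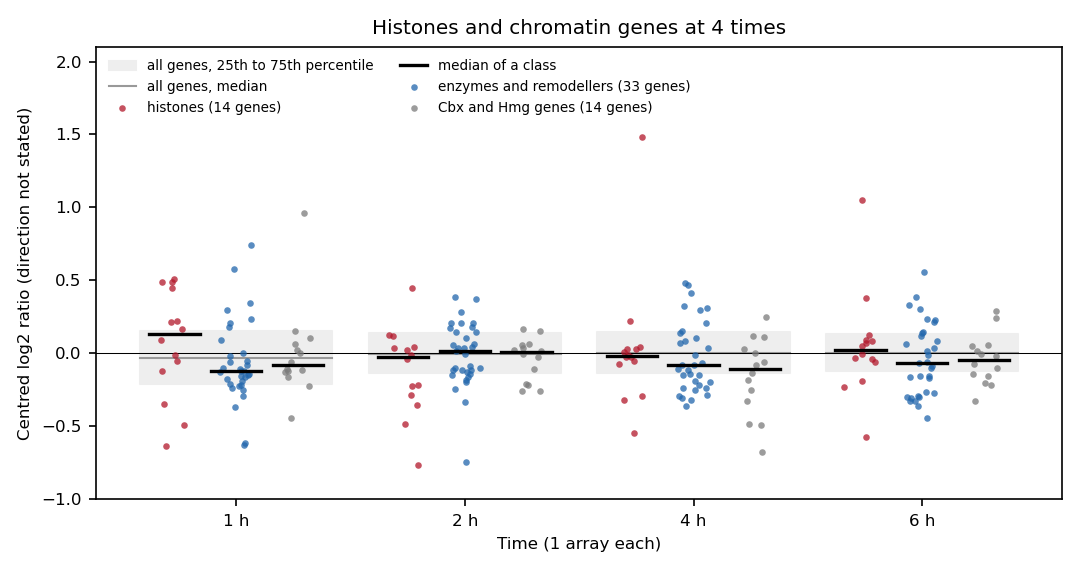
Centred log2 ratios (vertical axis, direction not stated) of the 14 histone, 33 enzyme and remodeller and 14 Cbx or Hmg genes with values on all 4 arrays, at 1, 2, 4 and 6 h. Each point is a gene, black bars are class medians, and the grey band is the middle 50% of all 6661 genes. The histone median lies above the enzyme median at 1 h (0.13 and -0.12), and the medians lie closer together at the later times.

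The linker histone gene H1f4 had the widest range over time among the 61 genes with all 4 values. On its single feature it read -0.64, -0.29, 1.48 and 1.05 at 1, 2, 4 and 6 h. It was the lowest member at 1 h and the highest at 4 and 6 h. The slope with log2 time was 0.81 per doubling, which did not pass (limma, adjusted p = 0.255 over 6661 genes). The 20 features with the nearest feature numbers had medians between 0.03 and 0.08 on the 4 arrays and a highest value of 0.40 at 4 h. H1f2 stayed near 0, at 0.09, -0.01, 0.04 and -0.04. H1f6, the testis linker histone, had no value at 1 h and read 0.17, 0.26 and 0.27 at 2, 4 and 6 h. Of the 2 linker histones measured at all times, 1 thus had wide ratios and the other had ratios near 0.

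At 1 h 2 of 3 H2B genes and 2 of 2 H4 genes with all values were positive, where 45.3% of all genes were. H2bc4 read 0.51, 0.12, 0.01 and 0.09, and H2bc22 read 0.45, 0.04, 0.03 and 0.12 at 1, 2, 4 and 6 h. Both were thus positive on every array and largest at 1 h. H4c11 read 0.49, 0.45, 0.22 and 0.05, also positive on every array, and H4c9, without a value at 6 h, read 0.49, 0.36 and 0.03. The features of H4c14 differed in sign at 1 and 4 h: 1 read -0.16, 0.20, 0.27 and 0.48, and the other 0.61, 0.04, -0.30 and 0.27. H2bu2 of the H2B family ran the other way, at -0.35, -0.22, -0.05 and -0.19.

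The H2A family was split by gene. The replacement variant H2az2, which encodes an H2A.Z, read 0.49 at 1 h and 0.03, -0.02 and -0.03 later, and H2az1, the other H2A.Z gene, read 0.30 at 1 h, had no value at 2 h, and read -0.02 at 4 h and 0.02 at 6 h. Both H2A.Z genes were positive at 1 h and near 0 at 4 and 6 h. H2ax, whose product is phosphorylated at DNA breaks, was negative on every array (-0.06, -0.35, -0.32 and -0.23), as was the replication-dependent H2ac4 (-0.49, -0.48, -0.29 and -0.06). H2al1m read 0.46, -0.23 and 0.07 at 1, 2 and 4 h.

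Of the H3 genes, H3c8 had the lowest later ratios. Its feature with all values read 0.21, -0.77, -0.55 and -0.57 at 1, 2, 4 and 6 h. A second H3c8 feature with a value at 2 h alone read 0.11 there, so the low ratio was not shared by both. H3f3b, one of the genes for the replacement variant H3.3, stayed between -0.22 and 0. H3c14 (0.17, -0.04, -0.02 and 0.07) and H3c7 (-0.12, 0.02, 0.03 and 0.08) were small throughout. H3c15 had a value at 2 h alone, 0.77, as did H2bl1 of the H2B family, 0.50.

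Deacetylases were negative at 1 h in 6 of 6 genes with all values, where 45.3% of all genes were positive. Hdac1, a class I enzyme of the Sin3 and NuRD corepressor complexes, read -0.21, 0.37, 0.31 and 0.24 at 1, 2, 4 and 6 h. Hdac8 of the same class read -0.61, 0.18, 0.48 and 0.33. Both were negative at 1 h and positive at the 3 later times. Hdac2, the close relative of Hdac1, stayed between -0.10 and 0.08, and Hdac3, the deacetylase of the NCoR complex, between -0.14 and 0.04 as the mean of 3 features. Hdac5, a class II enzyme that shuttles out of the nucleus with neuronal activity, read -0.22, 0.01, -0.36 and -0.29. The mainly cytoplasmic Hdac6, which deacetylates tubulin, was negative on every array, from -0.37 at 1 h to -0.12 at 4 h. Hdac7 read -0.12, -0.05 and -0.46 at 1, 2 and 4 h.

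Among acetyltransferases, Kat6b was negative on every array (-0.29, -0.12, -0.29 and -0.27), and the feature of Kat2a with all values read 0.09, 0.20, -0.02 and 0.22. Kat2b, which encodes PCAF, gave the lowest member ratios of the series on a feature that lacked a 2 h value and read 0.14, -2.48 and -2.59 at 1, 4 and 6 h. Its other feature read -0.24 at 1 h and 0.13 at 2 h and had no later value. The lowest of the 19 features numbered nearest to the low one read -0.23 at 4 h and -0.47 at 6 h. The 2 Kat2b features share the 1 h array alone, so the low later values rest on a single feature. Kat2b did not enter the main tests, which needed all 4 values.

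Of the 8 Kdm and Kmt genes with all values, 5 were negative on every array, where 13.8% of all genes were. The methyltransferases Kmt2a and Kmt2b, which methylate H3 lysine 4, were negative on every array: Kmt2a read -0.06, -0.24, -0.25 and -0.36, and Kmt2b read -0.12, -0.34, -0.24 and -0.44. The demethylases Kdm3b (-0.10, -0.16, -0.32 and -0.33), Kdm4b (-0.22, -0.09, -0.15 and -0.17) and the X-linked Kdm6a (-0.11, -0.13, -0.31 and -0.32) did the same. Kdm5c, an H3 lysine 4 demethylase, was positive except at 2 h (0.34, -0.14, 0.21 and 0.23). Its Y-linked relative Kdm5d read 0.30, -0.75, -0.20 and -0.30. Kdm2b read -0.24 at 1 h and 0.21, 0.15 and 0.08 later. Ezh2, the catalytic subunit of Polycomb repressive complex 2, read 0.74, -0.01, 0.33 and 0.03. Its relative Ezh1 averaged -0.13, 0.03, 0.47 and 0.14, and its features differed at 4 h (0.17 and 0.77).

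The 3 DNA methyltransferase genes with all 4 values had ratios between -0.30 and 0.21. Dnmt1, the maintenance enzyme, averaged -0.16, 0.15, -0.08 and -0.10, with features of -0.39 and 0.08 at 1 h. The de novo enzyme Dnmt3a stayed between -0.14 and 0.14. Dnmt3b, the other de novo enzyme, read 0.21, -0.11, -0.22 and -0.30.

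Remodeller genes included 3 of 9 Smarc genes that were negative at 1 h and positive at all later times, as were 17.2% of all genes. Smarce1, a DNA-binding subunit of the BAF complexes, read -0.15, 0.21, 0.42 and 0.56 and was among the 3 highest members at 6 h. Smarcd3, the BAF60c subunit, read -0.16, 0.38, 0.14 and 0.31. Smarcad1 was smaller, at -0.18, 0.04, 0.11 and 0.14. The ATPase Smarca2 (-0.25, 0.06, -0.29 and -0.30) and Smarcd2 (0.58, -0.20, -0.11 and -0.16) ran otherwise, and the remaining Smarc genes lay between -0.19 and 0.17 on all arrays. Chd1, a remodeller found at transcribed genes, read -0.63, 0.28, 0.29 and 0.39, one of the 3 lowest members at 1 h and of the 3 highest at 6 h. Chd4, the ATPase of the NuRD complex, ran in the opposite direction, at 0.18, -0.10, -0.24 and -0.27.

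Of the 14 Cbx and Hmg genes with all 4 values, Hmga2 had the largest ratios: 0.96, -0.26, -0.67 and -0.15. Hmgb1, an abundant DNA-bending protein, was negative on every array (-0.06, -0.21, -0.48 and -0.10), and Hmgn1, a nucleosome-binding protein, was positive on every array (0.15, 0.06, 0.11 and 0.24). Hmgn2 was negative on every array and the least variable of these genes, from -0.12 to -0.08. The heterochromatin protein gene Cbx5 read 0.06, 0.15, -0.49 and -0.33, while its relative Cbx1 read -0.13, 0.03, 0.25 and 0.01. The map of all 61 genes shows these values side by side.

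**Figure D3:**
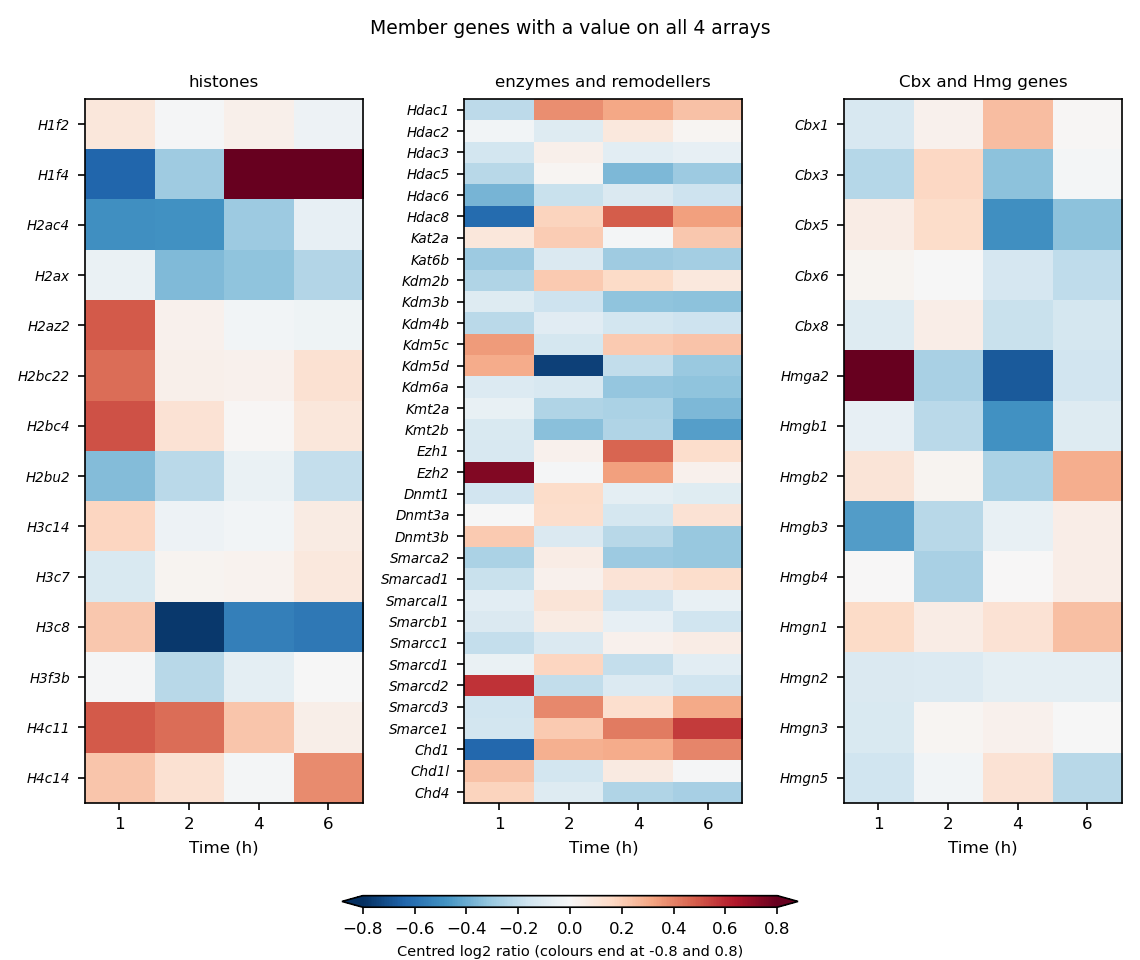
Centred log2 ratios of the 61 member genes with a value on all 4 arrays, by time (columns) and gene (rows, in family order), for histones, enzymes and remodellers, and Cbx and Hmg genes. Red is positive and blue negative, and colours end at -0.8 and 0.8. H1f4 turns from blue at 1 and 2 h to red at 4 and 6 h, and Kmt2a and Kmt2b are blue in every column.

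A negative sign on all 4 arrays was seen in 13 of 61 genes, 4 histones, 7 enzymes and 2 Hmg genes, and a positive sign in 4 of 61, 3 histones and Hmgn1. Over all 6661 genes the shares were 13.8% and 11.1%. The RNA of drug-injected mice carried the same dye on every array. A dye bias of a gene that is constant over arrays would also push its ratios towards the same sign, and was not tested. A negative ratio at 1 h followed by positive ratios at all later times was found in 10 of 61 genes, 8 of them enzymes, where 17.2% of all genes did so. The reverse was found in 7 of 61, where the background was 15%. The ratios of the 61 genes at 4 and 6 h correlated at r = 0.81 (Pearson, across genes, which are not independent replicates), and those at 1 h correlated at -0.08, -0.27 and -0.19 with 2, 4 and 6 h. Over all genes with no ratio at or under -1.5, 4 and 6 h correlated at 0.71, and 1 h at -0.13, -0.16 and -0.15 with the later times. By rank (Spearman), 1 h correlated at -0.10, -0.11 and -0.05 with 2, 4 and 6 h over the 61 genes. Within classes, 1 and 2 h correlated at 0.55 over the 14 histones and at -0.41 over the 33 enzymes (Pearson). Over the histones, 1 h against 4 and 6 h gave -0.36 and -0.31 by Pearson but 0.14 and 0.18 by rank. Genes on an array share its hybridisation, and these values have no test. The 1 h array thus stood apart from the later ones over the array and in the chromatin genes together.

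Ratios shared by the 4 times were tested with limma as a mean that differs from 0, and the error came from how the 4 times varied. No array had the dyes swapped, so a constant dye bias of a gene would also move its mean away from 0. The test of the mean cannot separate such a bias from a difference between the treatments. None of the 61 genes passed after adjustment, beside 0 of 6661 genes (0%), and the lowest adjusted p among the members was 0.253. At an unadjusted p under 0.05 there were 14 members, 13 negative and 1 positive, beside 976 of all genes (14.7%), of which 520 were negative and 456 positive. The 1 positive member was H4c11, with a mean of 0.30 ± 0.21 (SD, n = 4 arrays). The smallest unadjusted p belonged to Kmt2b, with a mean of -0.28 ± 0.14. For the slope with time 0 of 61 passed, beside 0 of 6661 (0%), with 11 members and 15.9% of all genes at an unadjusted p under 0.05.

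Because the 1 h array stood apart, the mean over 2, 4 and 6 h was also tested. The choice to report this fit in detail rested on the same ratios that it tests. Leaving the 1 h array out also took its variation out of the error. The p-values of this fit, here and below, are therefore descriptive and give no independent support. With the same dye order on each of its arrays, this mean too cannot separate a constant dye bias from a treatment difference. In that limma fit 9 of 61 members passed (14.8%), beside 12.9% of all genes, so the share was near that of the array. By direction 4 were positive (background 6.95%) and 5 negative (background 5.9%). Negative were H3c8 (mean -0.63 ± 0.12, SD, n = 3 arrays, adjusted p = 0.00952), Kmt2b (-0.34 ± 0.10, 0.0313), H2ax (-0.30 ± 0.06, 0.0326), Kmt2a (-0.29 ± 0.07, 0.0364) and Kdm3b (-0.27 ± 0.09, 0.0432). Positive were Smarce1 (0.40 ± 0.18, 0.0364), Hdac8 (0.33 ± 0.15, 0.042), Chd1 (0.32 ± 0.06, 0.0279) and Hdac1 (0.31 ± 0.07, 0.0324). They comprised 2 of 14 histones and 7 of 33 enzymes or remodellers. The 2 histones were negative, and of the 7 enzymes 4 were positive and 3 negative. Whether the classes differed in this was not tested. Without the 2, 4 or 6 h array instead, 0 of the 61 passed, beside 0 of 6661 genes in each of these fits.

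**Figure D4:**
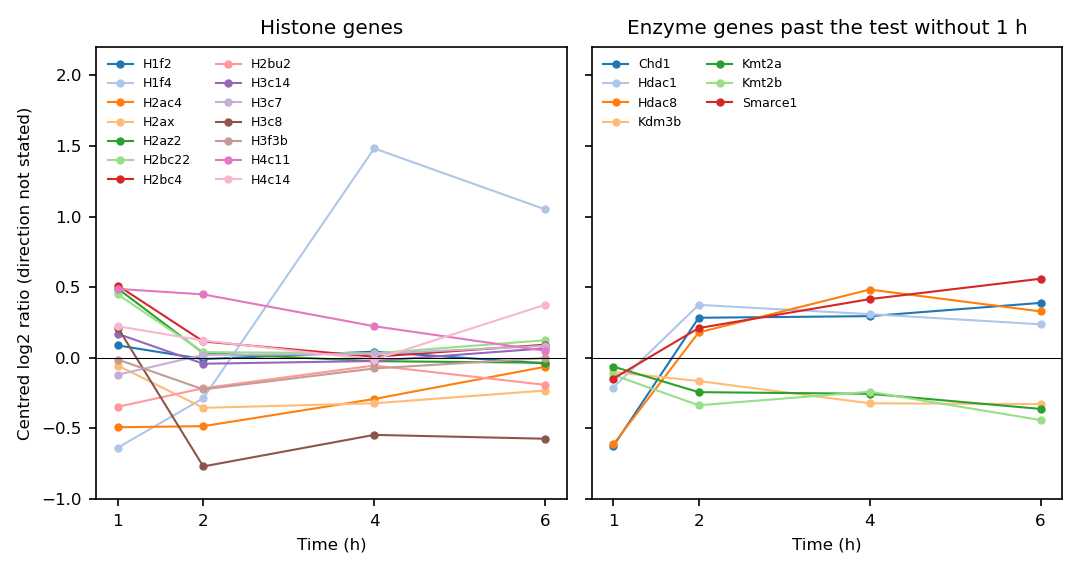
Centred log2 ratios (vertical axis, direction not stated) at 1, 2, 4 and 6 h of the 14 histone genes (left) and the 7 enzyme genes that passed the test of the mean over 2, 4 and 6 h (right), 1 line per gene and 1 array per time. H1f4 is the line that reaches 1.48 at 4 h, and Chd1 and Hdac8 start near -0.6 at 1 h.

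Ratios at or beyond 0.5 in either direction were counted beside those of all genes. At or above 0.5 there were 4, 0, 1 and 2 of the 61 genes at 1, 2, 4 and 6 h, where 3.59%, 1.1%, 2.57% and 1.92% of all genes with 4 values lay there. At or below -0.5 there were 3, 2, 2 and 1, where the background was 5.36%, 2.42%, 3.39% and 2.6%. Counting every member with a value at a time, 10 of 73, 2 of 69, 1 of 67 and 2 of 64 lay at or above 0.5, beside 7.52%, 2.06%, 3.2% and 2.59% of all such genes. At or below -0.5 there were 3, 1, 3 and 2, beside 5.36%, 3.6%, 5.18% and 3.91%. Of the 10 members at or above 0.5 at 1 h 5 were histones, but 4 of these (H1f1, H2ac10, H2bfm and H3c1) had a value at 1 h alone. Of the 14 histones with all 4 values, only H2bc4 lay there.

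A list of other chromatin genes held corepressors, Polycomb and trithorax subunits, bromodomain proteins, sirtuins, arginine methyltransferases, chaperones and cohesin. Of its 101 genes 50 had values on all 4 arrays. Their medians were -0.08, 0.06, 0.03 and 0.02 at 1, 2, 4 and 6 h. None passed in the test of the mean over 4 arrays. Over 2, 4 and 6 h 6 of the 50 passed, beside the same 12.9% of all genes. Ring1, a Polycomb ubiquitin ligase (-0.40 at 1 h, later mean 0.32), Men1, the menin subunit of the KMT2 complexes (-0.14, later mean 0.25), and Prmt5, an arginine methyltransferase (0.03, later mean 0.25), were positive. The bromodomain gene Brd2 (0.23, later mean -0.39), the H3.3 chaperone Hira (-0.43, later mean -0.39) and the BAF subunit Dpf1 (-0.03, later mean -0.32) were negative. The KMT2 complex genes were thus not of 1 sign, with Kmt2a and Kmt2b negative and Men1 positive over these times.

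Since replication-dependent histones follow S phase, markers of dividing cells were read beside them. Of 19 markers 12 had values on all arrays, with medians of 0.00, 0.01, 0.04 and -0.05 and ranges of -0.46 to 0.34, -0.23 to 0.56, -0.71 to 0.42 and -0.24 to 0.57. At 1 h 6 of these 12 were positive. Over 2, 4 and 6 h 1 of the 12 passed, beside 12.9% of all genes. It was the replication factor Mcm2 (0.46, 0.42 and 0.57, against -0.23 at 1 h). The other markers had means over these times from -0.39 (Rrm2) to 0.32 (Mcm5). Granule cell markers, the main neurons of the dentate gyrus, had values on all arrays for 5 of 12 genes, with medians of -0.35, 0.00, -0.10 and -0.11. At 4 and 6 h 1 of these 5 was positive, Prox1, the granule cell transcription factor, which read -0.57, 0.04, 0.60 and 0.21 over the 4 times. Calb1, Neurod1, Neurod2 and Trpc6 were negative at 4 and 6 h, with Neurod2 lowest at -0.45 and -0.34.

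Markers of tissue next to the dentate gyrus differed between the arrays. The choroid plexus genes Ttr, which encodes transthyretin, and Kl, which encodes klotho, read -0.20 and -0.02 at 1 h and lay between -0.60 and -1.64 at the later times. They were the 2 of 8 choroid plexus markers with all values. Of 8 blood markers 2 had all values: Car1, the red cell carbonic anhydrase, read 0.59, -2.81, -4.09 and -2.74, and Hba-a1, an alpha globin gene, read 0.24, 0.49, 0.09 and 0.21. The medians stayed between -0.02 and 0.13 for 8 astrocyte markers, between 0.03 and 0.14 for 6 oligodendrocyte markers, between 0.02 and 0.17 for 8 microglia markers and between -0.06 and 0.11 for 4 vessel markers. Single markers nevertheless passed the limma test over 2, 4 and 6 h that the 9 chromatin genes passed, as did 12.9% of all genes. These were 3 of the 8 astrocyte markers, all positive: Gfap (mean 0.38, adjusted p = 0.0212), Aldoc (0.38, 0.0258) and Slc1a3 (0.36, 0.0256). The other astrocyte markers had means from -0.12 (Aqp4) to 0.03 (S100b). Of the 8 microglia markers 1 passed, Fcer1g (0.26, 0.0452), and the others had means from -0.24 (C1qc) to 0.31 (Tyrobp). Of the 4 vessel markers 1 passed, Flt1 (-0.34, 0.0282), and the others had means from -0.05 (Kdr) to 0.16 (Tek). Kl (-1.54, 0.000203), Ttr (-0.73, 0.00832) and Car1 (-3.22, 0.00415) also passed and were negative. Ratios do not show the level of a marker, so the tissue label could not be checked. Fewer cells of a type and less RNA per cell cannot be told apart in such RNA. The part of these markers in the histone and enzyme ratios was not tested.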

How the data were processed

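The deposited table held log2 ratios (the base is assumed) of the 2 channels of 4 arrays. The authors' scanning, background correction, normalisation, log base and direction are not given in the sources used here. An exact 0 was taken as no value (25.5%, 24.9%, 37.4% and 35.4% of features on the arrays of 1, 2, 4 and 6 h). Each array was centred on the median of its other values (0.0074, 0.0093, 0.017 and 0.0052).

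Of 16281 features, 13738 had 1 platform symbol, 52 several and 2491 none. Identifiers of 13694 matched RefSeq GRCm38.p6, and 0 symbols changed. Features with 1 symbol and all 4 values were averaged per gene, which gave 6661 genes. In limma 3.58.1 (R 4.3.3) the mean over arrays and the slope on log2 hours were tested two-sided for all genes, and Benjamini-Hochberg adjusted p-values under 0.05 counted as passed. The error is the variation among times, since no time was repeated. The fits were tested on simulated data.

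The named genes were all histones with 4 values, the highest and lowest mean of each family, the 3 highest and lowest members at each time, members past 0.5 on 3 arrays with 1 sign, and a fixed list of 15 enzyme and Hmg genes. Other members are given to complete their family. The members and lists were chosen with earlier results of these data known.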

Additional observations from a re-analysis of the deposited data

Results flagged for a closer look

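In 9 of the 39 named genes with all 4 values the earlier arrays lay on one side of 0 and the later arrays on the other, with means at least 0.5 apart. Some were named because they were highest or lowest at a time, which favours such a pattern. The share over all genes with this limit was not computed. With no limit on size, 17.2% of all genes were negative at 1 h and positive later, and 15% the reverse. Those shares cover a split after 1 h alone, while H1f4 and Cbx5 split after 2 h. The count of 9 thus has no matching background. With 1 array per time the differences were not tested. The mean over 2, 4 and 6 h minus the value at 1 h was 0.95 for Chd1, 0.94 for Hdac8, 0.54 for Smarce1 and 0.52 for Hdac1, and -0.71 for Kdm5d, -0.84 for H3c8 and -1.32 for Hmga2. The mean over 4 and 6 h minus that over 1 and 2 h was 1.73 for H1f4 and -0.51 for Cbx5.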

How the results depend on the processing

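No time had a second array, and intensities were not used here, so neither signal over background nor dye bias could be examined. The count of genes past the test of the mean, 0 in the main setting, was 1793 with array weights, 14 when 3 values sufficed for a gene and 9 with quantile normalisation, and between 0 and 856 when 1 array was left out. For the 61 chromatin genes it was 21 with array weights (34.4%, beside 26.9% of all genes) and between 0 and 9 with 1 array left out. The weights in the fit of the mean were 0.21, 0.90, 1.65 and 3.26 for 1, 2, 4 and 6 h. They were estimated from the same ratios and gave the 1 h array the least weight. The counts with array weights are therefore descriptive, like those without the 1 h array. Over all genes the slope count was 0, and between 0 and 12 with 1 array left out. For the 61 chromatin genes the slope count was 0 in every setting. Among the fits with 1 array left out, the highest counts over all genes came without the 1 h array for the mean (856) and without the 6 h array for the slope (12). The cause of these changes was not tested.

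The histone median at 1 h, 0.13, was 0.26 with any value at that time and 0.038 with 1 feature per gene. That at 2 h was 0.021 with any value and -0.11 as a mean, and that at 4 h was 0.033 as a mean. The enzyme median was -0.0085 at 2 h and -0.022 at 4 h as a mean. The difference between histones and enzymes was 0.38 at 1 h and 0.0079 at 2 h with any value. The value of 0.38 includes histones measured at 1 h alone, where such features read high over the whole array, and so gives no support to the difference. With an exact 0 read as a value the difference at 1 h was 0.29. That setting includes the same histones and gives no support either. In the remaining settings the difference at 1 h lay between 0.13 and 0.25. Of the 12 genes under the naming rule with 1 sign on all arrays, 5 passed with array weights and 3 without the 1 h array. Over all genes the shares were 26.9% and 12.9%. The 12 were picked by sign from the ratios that the test of the mean uses, which favours passing. No paired analysis was possible because each time has a single array.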
